A study of Mus musculus with 2 samples.

Results

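The ABC transporter family comprises membrane pumps and related proteins that share an ATP-binding cassette, the domain that binds and hydrolyses ATP. The family was taken as every gene with a symbol from Abca to Abcg followed by a number, measured by a probe set that names that gene alone. The rule found 48 genes, each with 1 probe set, among 22180 genes so named on the arrays. RNA came from the colons of healthy male ICR mice, an outbred stock, 7 weeks old. The psyllium array carried RNA of animals given feed with 10% psyllium, the gel-forming husk of Plantago seed, over 5 days. The control array carried RNA of animals given feed without psyllium over the same time. The labels do not give the number of mice behind each array, the segment of colon, or whether the muscle wall was kept. With 1 array per diet there is no replicate check, so no standard error, p-value or test is given, and each difference describes these 2 arrays.

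ABC pumps use ATP to move substrates across a membrane against their gradient. In the gut epithelium several of them, including P-glycoprotein and the breast cancer resistance protein, send drugs, plant compounds and conjugates back to the lumen or on to the blood. Others move sterols and phospholipids, bring fatty acyl-CoA into peroxisomes, or serve iron and heme metabolism in mitochondria. The Abce and Abcf members keep the cassette but have no membrane domain, and act in translation.

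Values are normalised intensities on a linear scale, and a difference is log2 psyllium minus log2 control. A gene was counted as past the intensity filter where its brighter array reached 69.5, the median over all genes of that brighter value. Genes past the filter, 11090 in all, had differences with a median of -0.04 and a standard deviation of 0.33, and the arrays' log2 values correlated across these genes with r = 0.97. Of the ABC genes 29 were past the filter, 28 of them on both arrays, and Abca8b passed on the psyllium array alone. The other 19 had intensities of 6.61 to 67.4 and were not counted. Intensities of different probe sets are not levels that can be set against each other.

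Cell type markers differed between the arrays, and their part in the ABC values was not tested. All 12 epithelium markers had negative differences, with a median of -0.25 and a summed intensity of 21831 on the psyllium array and 24966 on the control array. Of 11 absorptive colonocyte markers 10 were negative, with a median of -0.63 and sums of 20168 (psyllium) and 26934 (control). All 10 smooth muscle markers were positive, with a median of 1.31 and sums of 27176 and 11305 in the same order. All 8 fibroblast markers were positive, with a median of 1.57 and sums of 9761 and 3927. All markers of these 4 lists were past the filter. Of all genes past the filter 56.6% were negative. All 7 goblet cell markers were past the filter and positive, with a median of 0.24 and sums of 34454 (psyllium) and 28590 (control). Of these 2 were at least 1.5-fold higher, where 4.03% of all genes past the filter were as much higher. Markers of epithelial cell types thus differed in both directions. Macrophage markers had a median of 0.40 and endothelium markers one of 0.00. The tissue label was checked against Cdx2, the intestinal identity factor, at 665 on the psyllium array and 933 on the control array, while 0 of 5 hepatocyte markers were past the filter. In whole-tissue RNA fewer cells of a type and less RNA per cell cannot be told apart.

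On the psyllium array 5 of the ABC genes past the filter were lower by 1.5-fold or more, and 0 were higher by as much. The 5 were Abcb1a, Abcc3 and Abcg2, which export drugs and conjugates, Abca12, a lipid transporter, and Abcb6, a porphyrin transporter of mitochondria and other membranes. They make up 17.2% of the 29, where 2.42% of all genes past the filter were as much lower and 4.03% as much higher. Negative differences numbered 17 of 29 (58.6%), where 56.6% of all genes past the filter were negative. The family median past the filter was -0.03, close to the median of -0.04 over all genes past it. The other 24 lay between -0.30 and 0.53, with 12 negative and 12 positive. The called values thus lay in a few members, while the middle of the family lay where the middle of all genes did.

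**Figure D1:**
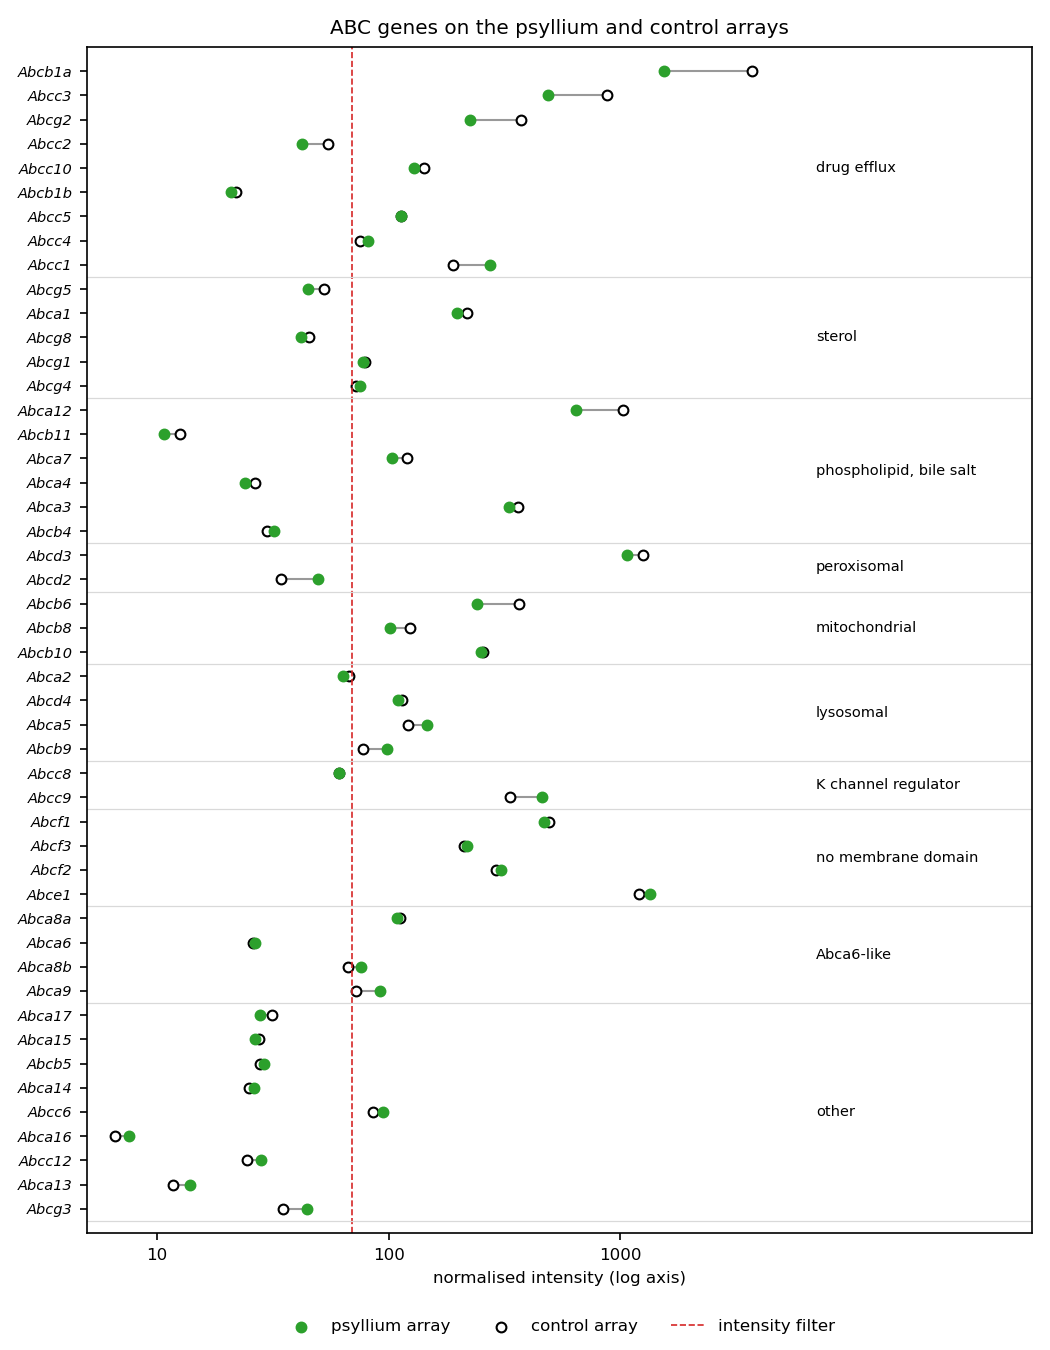
Normalised intensity (log axis) of all 48 ABC genes, 1 row per gene grouped by role, with the psyllium array as filled points and the control array as open points. Abcb1a has the widest gap, at 1545 (psyllium) and 3694 (control), and the dashed line is the filter at 69.5.

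**Figure D2:**
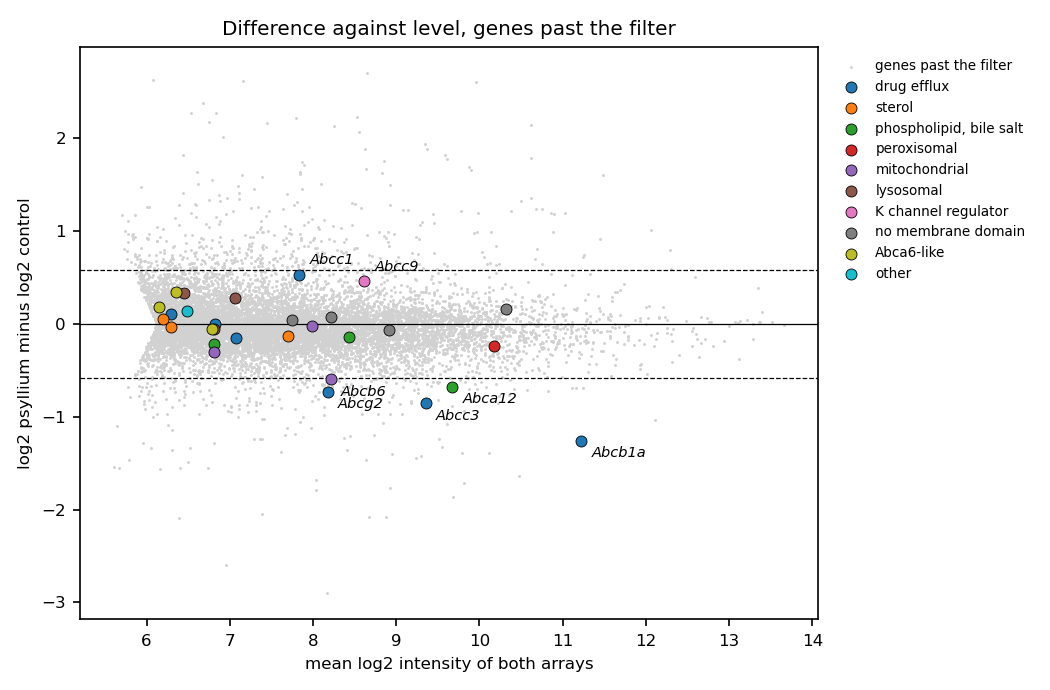
Log2 difference (psyllium minus control) against the mean log2 intensity of both arrays for the 11090 genes past the filter (grey) and the 29 ABC genes among them (coloured by role), with dashed lines at 1.5-fold. The 5 ABC genes below the lower line are Abcb1a, Abcc3, Abcg2, Abca12 and Abcb6, and 0 lie above the upper one.

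The genomic windows at the starts of 5 transcripts are shown because they belong to called or neighbouring pumps. Abcb1a and Abcb1b are close paralogs that lie beside each other and both encode P-glycoprotein in mice, of which Abcb1a was called and Abcb1b was below the filter on both arrays. Abcg2 and Abcb6 are called genes whose windows held a searched motif. Each window runs from 250 bases before to 50 after a RefSeq transcript start (GRCm38.p6, 5′ to 3′ on the gene's strand). Capitals mark the motifs AGGTCA, the core bound by many nuclear receptors, and TGACNNNGC, the antioxidant response core, on either strand.

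Abcb1a (chr5:8566841-8567140, plus strand): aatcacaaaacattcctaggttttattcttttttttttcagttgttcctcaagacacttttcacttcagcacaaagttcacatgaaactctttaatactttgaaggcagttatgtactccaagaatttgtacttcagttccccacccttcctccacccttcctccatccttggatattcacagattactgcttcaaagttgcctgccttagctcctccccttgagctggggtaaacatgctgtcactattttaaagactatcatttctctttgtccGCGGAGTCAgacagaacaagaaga

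Abcb1b (chr5:8797897-8798196, plus strand): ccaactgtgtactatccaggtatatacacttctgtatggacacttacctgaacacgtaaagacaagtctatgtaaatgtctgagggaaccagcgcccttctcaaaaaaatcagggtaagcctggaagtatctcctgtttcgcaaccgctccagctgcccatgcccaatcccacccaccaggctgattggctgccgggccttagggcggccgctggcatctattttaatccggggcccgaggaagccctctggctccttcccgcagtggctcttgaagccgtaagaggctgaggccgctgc

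Abcg2, upstream start (chr6:58584283-58584582, plus strand): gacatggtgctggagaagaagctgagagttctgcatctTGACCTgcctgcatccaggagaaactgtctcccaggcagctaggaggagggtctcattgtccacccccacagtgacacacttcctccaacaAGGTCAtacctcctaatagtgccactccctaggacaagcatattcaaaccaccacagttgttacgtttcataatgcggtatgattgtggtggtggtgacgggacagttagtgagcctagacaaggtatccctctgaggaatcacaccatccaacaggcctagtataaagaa

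Abcg2, downstream start (chr6:58640296-58640595, plus strand): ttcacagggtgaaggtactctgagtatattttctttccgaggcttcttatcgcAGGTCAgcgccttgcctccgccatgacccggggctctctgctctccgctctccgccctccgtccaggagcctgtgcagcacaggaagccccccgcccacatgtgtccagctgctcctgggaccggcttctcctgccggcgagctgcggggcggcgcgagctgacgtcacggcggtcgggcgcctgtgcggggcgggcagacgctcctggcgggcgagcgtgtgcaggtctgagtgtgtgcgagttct

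Abcb6 (chr1:75180343-75180642, minus strand): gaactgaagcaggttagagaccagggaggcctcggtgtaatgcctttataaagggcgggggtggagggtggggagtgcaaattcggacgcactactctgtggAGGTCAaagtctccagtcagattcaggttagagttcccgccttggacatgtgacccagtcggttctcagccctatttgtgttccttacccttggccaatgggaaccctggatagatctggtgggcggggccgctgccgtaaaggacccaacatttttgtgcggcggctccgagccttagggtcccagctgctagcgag

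The Abcb1a window held 1 antioxidant core on the minus strand, at bases 277 to 285 counted from its 5′ end, which lies after the transcript start. The Abcb1b window held neither motif. Base composition also differed between the neighbours, with 40.3% G or C and 2 CpG in the Abcb1a window and 55% and 12 CpG in the Abcb1b window. The AGGTCA core was present in the upstream and downstream windows of Abcg2, but not in the middle one of its 3 windows, and in the window of Abcb6. The window of Abca12 held neither motif, and the table used here had no window for Abcc3. Across the family 45 windows of 38 genes were available. The AGGTCA core was in 15.6% of them and in 16.2% of all 32544 windows of the same length. The antioxidant core was in 15.6% of ABC windows and in 12.4% of all windows. The 2 motifs can overlap, because the reverse complement of AGGTCA begins with TGAC, and did so in a window of Abcc10. Direct repeats of AGGTCA spaced by 1 or by 4 bases were in 0 ABC windows and in 0.0399% and 0.0154% of all windows. A match is a description of letters and not a binding site.

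Drug efflux genes held the lowest difference of the family and one of the highest. Abcb1a, which encodes the P-glycoprotein of the mouse intestinal epithelium (probe set 17434524), read 1545 on the psyllium array and 3694 on the control array, a difference of -1.26, or 2.39-fold lower. It ranked 34 from the lowest among the 11090 genes past the filter. Its paralog Abcb1b was dim on both arrays, at 20.9 (psyllium) and 22.0 (control), and so was not measured well enough to be compared. Probes of such close paralogs may bind both transcripts, so the assignment to Abcb1a is uncertain to that extent.

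Abcc3, a basolateral exporter of glucuronides and bile acids (probe set 17267846), read 487 on the psyllium array and 880 on the control array, 1.81-fold lower. Abcg2, the breast cancer resistance protein of the apical membrane (probe set 17459014), read 225 on the psyllium array and 372 on the control array, 1.66-fold lower. Their ranks from the lowest were 91 for Abcc3 and 141 for Abcg2. Abcb1a, Abcc3 and Abcg2 are the 3 of 7 drug efflux genes past the filter that were at least 1.5-fold lower, against a background of 2.42%.

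The remaining drug efflux genes did not share those values. Abcc1, an exporter of glutathione conjugates found in many cell types, read 274 on the psyllium array and 190 on the control array, a difference of 0.53 that lies just inside 1.5-fold. Abcc4, an exporter of cyclic nucleotides and other organic anions, read 81.6 on the psyllium array and 75.5 on the control array. Abcc5, which also exports cyclic nucleotides, had 113 on each array. Abcc10, a broad exporter of lipophilic anions, read 128 on the psyllium array and 142 on the control array, a difference of -0.15. Abcc2, the apical conjugate pump, was below the filter at 42.4 (psyllium) and 54.6 (control). The median over all 9 drug efflux genes was -0.15 and the mean -0.31. Without the 3 called pumps the other 6 had a median of -0.04. A higher median follows from leaving out the 3 lowest genes, and 2 of the 6 were below the filter.

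The 3 lower efflux pumps were set beside the epithelium and absorptive colonocyte markers. Each of Abcb1a, Abcc3 and Abcg2 lay below all 12 epithelium markers, whose lowest was Cdx2 at -0.49. Since no epithelium marker reached 1.5-fold, any gene called lower lies below all 12, so this position follows from the call. Relative to the epithelium median the 3 pumps lay at -1.01 (Abcb1a), -0.60 (Abcc3) and -0.48 (Abcg2). Relative to the absorptive colonocyte median they lay nearer to 0, at -0.63 (Abcb1a), -0.23 (Abcc3) and -0.10 (Abcg2). Absorptive colonocyte markers included larger negative values, namely Aqp8 at -2.60, which was dim on the psyllium array (50.5, against 307 on the control array) so that its size is uncertain, Slc37a2 at -2.09, Clca4a at -2.08 and Car4 at -1.42. Thus 4 of 11 absorptive markers lay below Abcb1a, and the same 4 lay below Abcc3 and Abcg2. Among them, Clca4a had a second, dim probe set that differed by -0.18. Abcc1 lay above all 12 epithelium and all 11 absorptive markers, and below all 10 smooth muscle markers. Any difference above 0.07, the highest of the epithelium and absorptive lists (Guca2a), lies above all markers of both. Every measured ABC gene lay below all 10 smooth muscle markers. Whether cell composition accounts for these values was not tested.

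Sterol transporters showed little difference. Abca1, which loads cholesterol and phospholipid onto apolipoprotein acceptors, read 198 on the psyllium array and 217 on the control array, a difference of -0.13. Abcg1, which exports cholesterol to lipoprotein particles, read 77.7 on the psyllium array and 79.4 on the control array. Its relative Abcg4 read 75.0 and 72.2 in the same order. Abcg5 and Abcg8, which together form the pump that returns plant sterols and cholesterol to the lumen, were both below the filter. Abcg5 read 45.1 on the psyllium array and 52.4 on the control array, and Abcg8 read 42.0 and 45.1 in the same order. The 5 genes had a median of -0.10 and a range of -0.22 to 0.06, and 0 of the 3 past the filter reached 1.5-fold. Of all genes past the filter 2.42% were as much lower and 4.03% as much higher.

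Other genes of sterol handling were also close to 0. Of 13 measured members of that list, all past the filter, 0 reached 1.5-fold, and their median was -0.09. The shares of all genes were again 2.42% lower and 4.03% higher. The brightest by the naming rule were Lpcat3, a phospholipid acyltransferase, at -0.18, and Lipa, the lysosomal cholesteryl ester hydrolase, at -0.27. Npc1l1, the apical sterol importer, read 64.5 on the psyllium array and 82.8 on the control array; it was named after its value was seen.

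Phospholipid and bile salt transporters held 1 called gene among 3 past the filter, where 2.42% of all genes past it were called lower. Abca12, which carries glucosylceramide in keratinocytes (probe set 17224015), read 645 on the psyllium array and 1030 on the control array, 1.60-fold lower, with rank 183 from the lowest. It too lay below all 12 epithelium markers, as any gene called lower must, and 5 of 11 absorptive colonocyte markers lay below it. Abca3, the lipid pump of lung lamellar bodies, read 331 on the psyllium array and 363 on the control array. Abca7, a phospholipid transporter, read 104 on the psyllium array and 121 on the control array. Abcb4, Abca4 and the bile salt export pump Abcb11 were below the filter, the last at 10.7 (psyllium) and 12.6 (control).

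Peroxisomal transporters rested on a single well-measured gene. Abcd3, which imports branched and long-chain acyl-CoA, read 1070 on the psyllium array and 1256 on the control array, a difference of -0.23. Abcd2, a very-long-chain acyl-CoA importer, was below the filter at 49.8 (psyllium) and 34.3 (control), a difference of 0.54 between dim values. The median of these 2 genes, 0.15, therefore has no settled direction, and without the dim gene it is -0.23.

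Genes for import and beta-oxidation inside the peroxisome had negative differences throughout. All 14 measured genes of this list were past the filter and negative, their median was -0.25, and 3 of them were called lower at 1.5-fold. Of all genes past the filter 56.6% were negative and 2.42% were called lower. The 12 epithelium markers were likewise all negative, also with a median of -0.25, and their part in these values was not tested. The 3 were Slc27a2, an acyl-CoA synthetase, at -0.83, the thiolase Acaa1b at -0.81 and catalase, Cat, at -0.72. Slc27a2 was dim on the psyllium array (46.9, against 83.3 on the control array), and its second, dim probe set differed by -0.07. Pex3 and Pex19, which insert peroxisomal membrane proteins, differed by -0.09 and -0.27; this pair was named after its values were seen.

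All 3 measured mitochondrial ABC genes were past the filter and had negative differences, of unequal size. Of all genes past the filter 56.6% were negative and 2.42% were called lower. The difference of Abcb10 turned to 0.03 once the trend with intensity was removed, and to 0.02 under quantile normalisation. Abcb6 (probe set 17224476) read 241 on the psyllium array and 364 on the control array, a difference of -0.59, or 1.51-fold lower. That lies just past the threshold, and under 3 of the alternatives, which gave -0.53 to -0.56, it was not reached. Abcb8, an inner membrane transporter, read 101 on the psyllium array and 124 on the control array, a difference of -0.30. Abcb10, an inner membrane protein of heme synthesis in red cell precursors, read 251 on the psyllium array and 256 on the control array. The median was -0.30, beside an epithelium marker median of -0.25.

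Partner genes of iron-sulfur and heme synthesis showed no called member. Of 16 measured genes, all past the filter, 13 (81.2%) were negative and 0 reached 1.5-fold, with a median of -0.10. Of all genes past the filter 56.6% were negative, 2.42% were called lower and 4.03% higher, so few calls would be looked for among 16 genes. The brightest by the naming rule were Alas1, the first enzyme of heme synthesis, at 0.06, and Glrx5, an iron-sulfur carrier, at -0.30. The lowest was the mitochondrial iron importer Slc25a28, which read 211 on the psyllium array and 292 on the control array, a difference of -0.47; it was named after its value was seen.

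Members with other roles lay within 1.5-fold. Abcc9, the regulatory subunit SUR2 of ATP-sensitive potassium channels in muscle, read 461 on the psyllium array and 335 on the control array, a difference of 0.46. Its relative Abcc8, the regulator in pancreatic beta cells, had the identical deposited value of 60.9 on both arrays, as did 2.45% of all probe sets. Of the pores they join, Kcnj8 read 297 on the psyllium array and 152 on the control array, a difference of 0.96, and Kcnj11 was below the filter. Abcc9 lay above all 12 epithelium markers, as any gene with a positive difference must, since all 12 were negative. It lay below all 10 smooth muscle markers, as did every measured ABC gene. The 4 pericyte markers ranged from -0.19 (Pdgfrb) to 1.05 (Cspg4), with a median of 0.36 over the 3 past the filter. The part of these cell types in the values of Abcc9 and Kcnj8 was not tested.

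The 4 genes without a membrane domain were all past the filter and differed by -0.06 to 0.16. Abce1, the ribosome recycling factor, read 1350 on the psyllium array and 1206 on the control array. Abcf1, Abcf2 and Abcf3, which act in translation or its control, differed by -0.06, 0.08 and 0.05. Of lysosomal members, Abca5 read 147 on the psyllium array and 121 on the control array. Abcb9, a lysosomal peptide transporter, read 98.3 on the psyllium array and 77.8 on the control array. The cobalamin transporter Abcd4 differed by -0.05 and Abca2 was below the filter. Among the Abca6-like genes Abca9 had the highest difference, 0.34, with Abca8b at 0.18, Abca8a at -0.05 and Abca6 below the filter.

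The remaining 9 genes were nearly all dim. Abcc6, whose loss causes ectopic mineralisation, was past the filter at 94.2 (psyllium) and 85.5 (control). The other 8, Abca13, Abca14, Abca15, Abca16, Abca17, Abcb5, Abcc12 and Abcg3, were below it, with differences of -0.18 to 0.34.

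**Figure D3:**
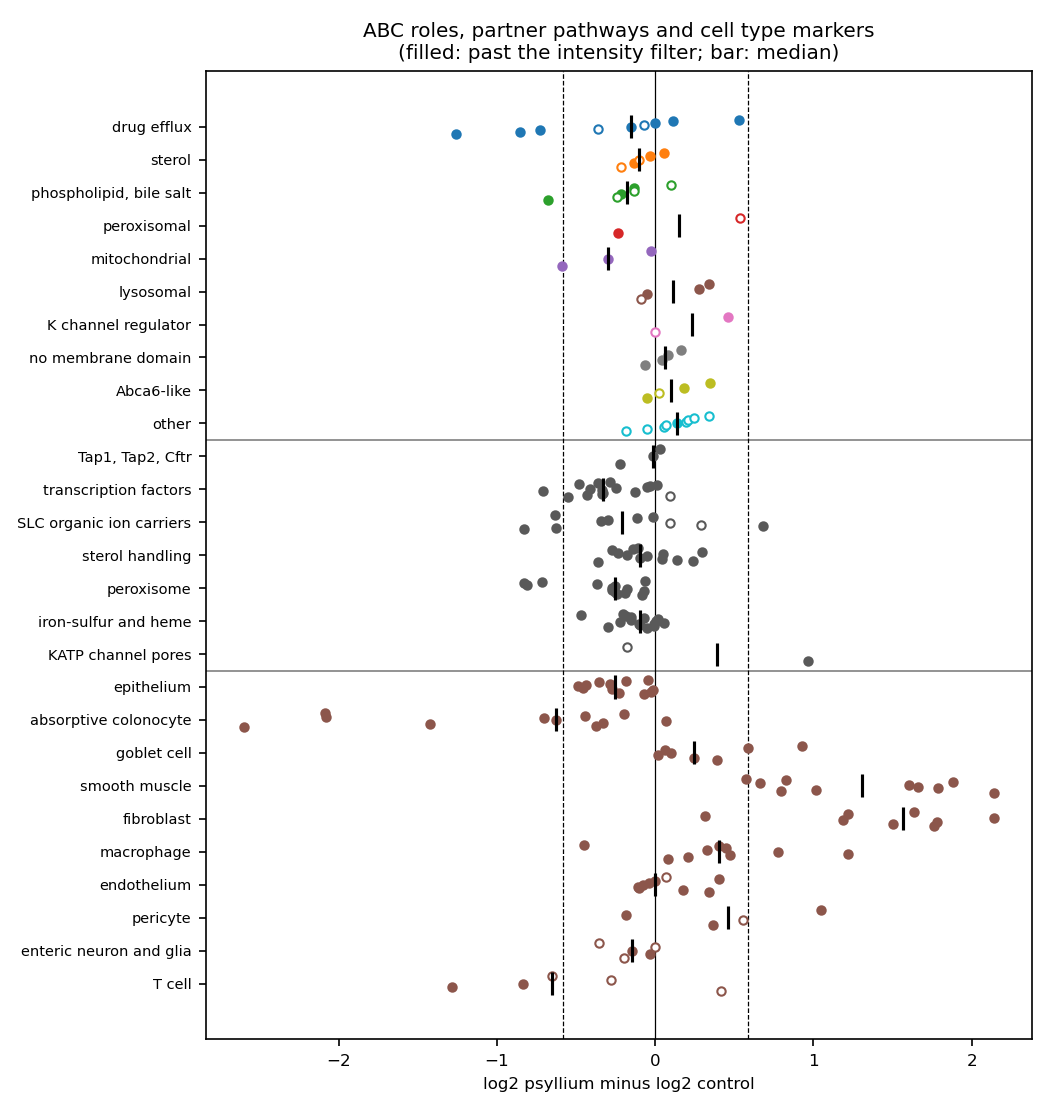
Log2 difference (psyllium minus control) of each measured gene, for ABC roles (top), partner pathways (middle) and cell type markers (bottom), with filled points past the intensity filter, open points below it, bars at list medians and dashed lines at 1.5-fold. Drug efflux genes spread from -1.26 to 0.53, whereas sterol genes stay between -0.22 and 0.06, and smooth muscle markers have a median of 1.31.

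Some ABC genes lie side by side in the genome. In the RefSeq gene order 15 of the 48 genes lie in 5 runs of directly adjacent ABC genes. In the run on chromosome 5 Abcb1a differed by -1.26, while its neighbours Abcb1b (-0.07) and Abcb4 (0.10) were dim on both arrays. The run on chromosome 11 holds Abca8b, Abca8a, Abca9, Abca6 and Abca5, with differences of -0.05 to 0.34 and 0 called. It is the one run with more than 1 gene past the filter, so the other runs could not have shown a shared call. Abcc3, Abcg2, Abca12 and Abcb6 have no adjacent ABC gene.

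**Figure D4:**
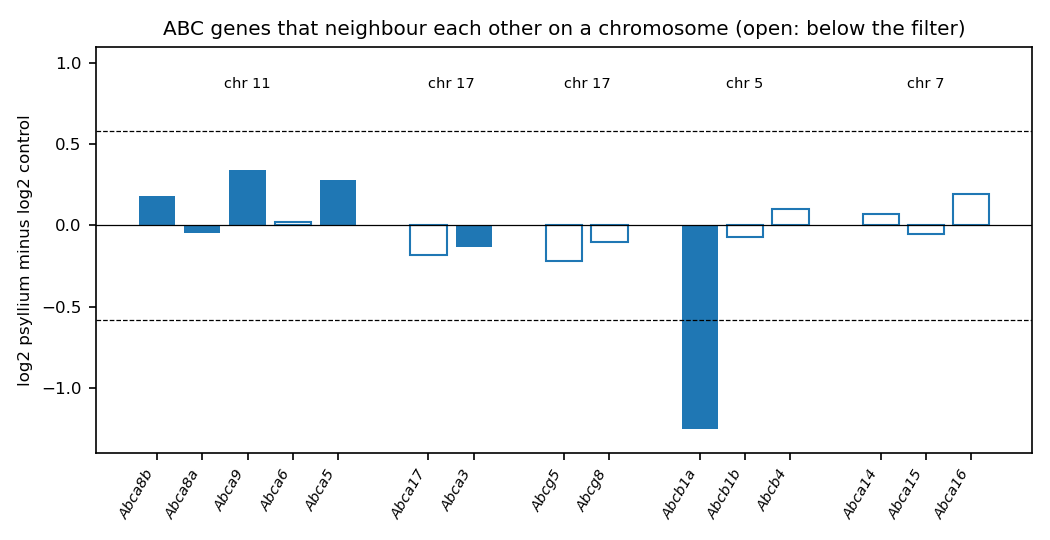
Log2 difference (psyllium minus control) of ABC genes that lie next to each other, in RefSeq gene order by chromosome, with open bars below the intensity filter and dashed lines at 1.5-fold. Abcb1a, at -1.26, is the single bar past a dashed line.

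Transcription factors known to act on transporter genes had mostly negative differences within 1.5-fold. Of 16 measured genes of this list 15 were past the filter, and 14 of these (93.3%) had negative differences. The 14 include Keap1, which regulates Nfe2l2 and is not itself a transcription factor. Of all genes past the filter 56.6% were negative. The median of the 15 was -0.34, against -0.04 for all genes past the filter. The called one was Ppara, the fatty acid receptor, at 179 on the psyllium array and 292 on the control array (-0.71). This single gene is 6.67% of the 15, where 2.42% of all genes past the filter were called lower. The pregnane X receptor Nr1i2, a xenobiotic sensor that induces Abcb1a, read 337 on the psyllium array and 494 on the control array (-0.55). Nfe2l2, the antioxidant response factor, differed by -0.25, and the liver X receptor Nr1h3, an inducer of Abca1, by -0.43. Apart from Ppara the genes of this list given here were named after their values were seen. Epithelium markers had a median of -0.25 on the same arrays.

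Solute carriers of organic ions, bile acids and peptides had mostly negative differences. Of 10 measured carriers 8 were past the filter, and 7 of these (87.5%) were negative, where 56.6% of all genes past the filter were. Of the 8, 3 were called lower (background 2.42%) and 1 higher (background 4.03%). The prostaglandin carrier Slco2a1 read 433 on the psyllium array and 768 on the control array (-0.83). The peptide carrier Slc15a1 differed by -0.64 and Slco2b1 by -0.63. Slco3a1 differed by 0.68 but was dim on the control array, at 98.4 (psyllium) and 61.4 (control). It passed the filter on the psyllium array alone. The ABC proteins whose symbols fall outside the rule stayed near 0, with Tap1 at -0.22, Tap2 at -0.01 and the chloride channel Cftr at 0.03.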

How the data were processed

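Biotin-labelled colon RNA was hybridised to whole-transcript arrays, 1 per diet, per the labels' protocols. The deposited values are normalised intensities, linear in scale, for 41345 probe sets. RMA and Affymetrix Expression Console are named in the submitters' processing notes without versions, and the step that gave linear values is not stated in the labels. The plan assumed values ready for log2, and the deposited intensities, all above 0, were converted to log2 with no pseudocount. They had a median of 49.8 on the psyllium array and 48.9 on the control array. Precision is limited by the number of arrays. Were the arrays equalised in that step, a shift of all transcripts would not show.

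Gene names came from the platform annotation at GEO, with symbols updated by gene number in a RefSeq table of assembly GRCm38.p6, which held 23328 of the 23521 probe sets naming 1 gene. Of several probe sets the brightest stood for a gene. Members, roles and lists were chosen with earlier results of these data known. Named genes were all ABC genes by role. Of each pathway list, called members past the filter were named (up to 4), or otherwise the 2 brightest. Genes named outside this rule are marked, apart from Kcnj11 and Tap2, whose short lists are given in full. Marker lists beyond those in the report were T cells, with a median of -0.65, and enteric neurons and glia, with a median of -0.15. Each of these lists had 5 measured genes, of which 2 were past the filter. The counting was tested on data with known folds. Python 3.11.15, pandas 2.3.3, statsmodels 0.14.6 and matplotlib 3.10.9 were used. Planned protein comparisons were not made.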

Additional observations from a re-analysis of the deposited data

How the results depend on the processing

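No paired analysis was possible because each diet has 1 array, and leaving out a replicate was not possible for the same reason. The alternatives were quantile normalisation, median centring, removal of the trend with intensity, a pseudocount of 16, the mean of probe sets, no filter, and a filter on both arrays. The mean of probe sets changes nothing for ABC genes, which have 1 probe set each. The count of ABC genes at least 1.5-fold lower was 4 or 5 under each of them. Abcb1a, Abcc3, Abcg2 and Abca12 were in it every time. Abcb6 was absent under quantile normalisation (-0.55), trend removal (-0.53) and the pseudocount (-0.56). The count at least 1.5-fold higher was 0 except under trend removal, where it was 1, Abcc1 at 0.59. The median of the peroxisomal genes was -0.23 on members past the filter, which leaves 1 gene. The other role medians, of drug efflux, sterol and mitochondrial genes, moved by less than 0.17, the median gap between probe sets of the same gene over 332 genes. All 170 differences of the 34 named ABC genes under 5 alternatives moved by less than that. Under 2 of the 5 they could not have moved by more. The mean of probe sets leaves them unchanged, and median centring shifts every difference by the same 0.04. Abcb10, Abcc5 and Abcf1 lay so near 0 that their sign turned under trend removal. The signs of Abcb10 and Abcc5 also turned under quantile normalisation. That gap is technical and says nothing of the spread between mice. Dim signal limits Abcb1b, Abcc2, Abcg5, Abcg8 and Abcd2 in particular.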
